A study of Mus musculus with 7 samples.

Results

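The 10 genes described here include Plk3, its paralog Plk2, the p53 gene Trp53 and its inhibitor Mdm2. The others are the p53 targets Cdkn1a, Btg2 and Ccng1 and the stress genes Gadd45a, Gadd45b and Gadd45g. The mRNA of all 10 was counted in macrophages taken by cell sorting out of gliomas that grew in the brains of C57BL/6 mice. The set was chosen by known links to p53 and by the level of Plk3, which was higher in every shChi3l1 library than in any shSC library. All 10 were found among the 55385 gene IDs of each count file, and all 10 passed the filter on low counts. Because this contrast was used in choosing them, differences between the hairpins are given below as descriptions, with fold changes and standard errors but no p-value for a gene or for the set.

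The groups are macrophages of tumours grown from QPP7 glioma cells with a hairpin against Chi3l1 (shChi3l1, 3 libraries) and of tumours grown from QPP7 cells with a control hairpin (shSC, 4 libraries). Each mouse received 100000 cells in the brain. The hairpin was carried by the tumour cells, so the macrophages of both groups are host cells without it. The labels name neither the antibodies of the sort nor the age of the mice and do not say how many animals stand behind a library, so p-values of the fit across all genes measure the spread between libraries only. As background that the labels do not state, QPP glioma cells carry a deletion of Trp53, which the host cells do not share.

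p53, the product of Trp53, is a transcription factor that is held low by the ubiquitin ligase MDM2 and becomes stable when DNA is damaged or a cell is otherwise stressed. It then switches on genes that halt the cell cycle, assist repair and, through Mdm2 itself, end the response. Several of these genes, among them Plk2, Plk3, Btg2 and the Gadd45 family, are also early-response genes: growth factors, inflammatory signals and tissue handling can induce them without p53.

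The regulatory sequence next to each start site was read from RefSeq (build GRCm38.p6, the build called mm10) as 250 bases before to 50 after the start, given below in the direction of transcription. There were 11 such windows for the 10 genes, since Cdkn1a has 2 starts in the table. The windows of Plk3, Btg2 and Plk2 are shown whole, because Plk3 and Btg2 had the highest fold changes of the set and Plk2 is the closest relative of Plk3 in it. Capitals mark matches to the cyclic AMP response element (CRE, TGACGTCA), the EGR1 motif GCGNGGGCG and the SP1 motif GGGCGG on either strand, where no EGR1 match overlaps an SP1 match and the 2 upstream SP1 matches of Btg2 share 1 base.
Plk3, chr4:117133914-117134213, minus strand: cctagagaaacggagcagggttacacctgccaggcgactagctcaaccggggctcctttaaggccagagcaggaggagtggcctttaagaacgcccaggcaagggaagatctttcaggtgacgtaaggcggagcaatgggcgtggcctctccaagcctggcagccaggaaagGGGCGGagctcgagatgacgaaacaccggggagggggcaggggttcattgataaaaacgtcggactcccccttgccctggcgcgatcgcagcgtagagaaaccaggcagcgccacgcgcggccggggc
Btg2, chr1:134079106-134079405, minus strand: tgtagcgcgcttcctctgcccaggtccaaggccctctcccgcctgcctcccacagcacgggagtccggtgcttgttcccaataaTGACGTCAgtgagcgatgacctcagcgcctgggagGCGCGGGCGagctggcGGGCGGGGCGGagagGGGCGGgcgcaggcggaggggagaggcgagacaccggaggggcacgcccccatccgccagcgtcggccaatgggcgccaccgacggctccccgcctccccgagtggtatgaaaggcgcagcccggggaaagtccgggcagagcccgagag
Plk2, chr13:110394794-110395093, plus strand: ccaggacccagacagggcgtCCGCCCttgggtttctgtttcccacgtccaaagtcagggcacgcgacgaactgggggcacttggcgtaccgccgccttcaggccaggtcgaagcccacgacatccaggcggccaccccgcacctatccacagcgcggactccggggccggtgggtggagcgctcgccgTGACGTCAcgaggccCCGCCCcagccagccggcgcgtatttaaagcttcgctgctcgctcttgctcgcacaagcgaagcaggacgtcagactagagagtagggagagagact

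The window of Plk3 held 1 SP1 match and no CRE or EGR1 match. Btg2 held 1 CRE, 1 EGR1 match and 3 SP1 matches, and Plk2 held 1 CRE and 2 SP1 matches. A CRE stood in 1.79% of all 32851 windows of the table, an EGR1 match in 5.55% and an SP1 match in 35.7%. The AP-1 motif TGANTCA was in none of the 11 windows, nor was the serum response element known as the CArG box, and these stood in 7.81% and 1.63% of all windows.

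A p53 response element, searched by its consensus of 2 adjacent decamers with up to 3 mismatches outside the fixed C and G of each decamer core, was found in 3 of the 11 windows, against 1.38% of all windows. The 3 sites are shown because they are the sites of this kind in the windows of the set, with the 4-base core of each decamer in capitals.
Cdkn1a, first start, chr17:29090928-29090947, plus strand: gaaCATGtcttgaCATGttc
Ccng1, chr11:40755462-40755481, minus strand: agaCCTGcccgggCAAGcct
Trp53, chr11:69580284-69580303, plus strand: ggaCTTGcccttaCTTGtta

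The Cdkn1a and Ccng1 sites each had 1 mismatch to the consensus, and the Trp53 site had 3. These matches describe letters within 300 bases and say nothing of binding in these cells. The windows of Plk3, Plk2, Btg2, Mdm2 and the Gadd45 genes held no match by this rule, and p53 elements known in some of these genes lie in introns or farther upstream, outside the windows.

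All 7 libraries were deep enough for every gene of the set. Totals of reads assigned to genes ran from 23174989 to 36502664 in shChi3l1 and from 19169129 to 32590781 in shSC libraries. Summed CPM (counts scaled to the TMM-adjusted total of a library) of 10 macrophage markers lay between 34367 and 51590 in shChi3l1 libraries, against 23727 to 35961 in shSC libraries, and no marker was at 0. Sums of 8 microglia markers ran from 1110 to 3653 CPM in shChi3l1 and from 874 to 1573 CPM in shSC libraries, and those of 10 glioma and glia markers from 35.2 to 75.7 CPM in shChi3l1 and from 41.0 to 265 CPM in shSC libraries. Sums for B cells, T and NK cells, neutrophils, dendritic cells, endothelium and fibroblasts with pericytes were each at most 553 CPM in any library. They varied widely between libraries, from 60.6 to 553 CPM for T and NK cells, 15.9 to 272 CPM for B cells and 3.55 to 70.6 CPM for neutrophils. Chil1, the mouse gene also called Chi3l1, had 1.19, 0.921 and 0.285 CPM in shChi3l1 and 0.816, 0.790, 0.819 and 0.774 CPM in shSC libraries, which is no check of the hairpin in the tumour cells. Fewer cells of a type and less RNA per cell cannot be told apart in such bulk libraries.

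Levels per length separated the set into an abundant trio and a lower group. On the RPKM scale (CPM per 1000 exon bases, mean ± SD over all 7 libraries), Btg2 had the highest level at 233 ± 94.9, followed by Cdkn1a at 196 ± 48.4 and Gadd45b at 168 ± 58.7. These 3 neighbours in the order did not differ beyond their spread. Plk3 came next at 27.5 ± 18.7 RPKM, below Gadd45b in 7 of 7 libraries but above Mdm2 in only 3 of 7. Its place depends on the group, at 43.7 ± 18.4 RPKM in shChi3l1 and 15.3 ± 3.27 RPKM in shSC libraries. In shSC its mean was below those of Gadd45g (29.0 RPKM), Mdm2 (28.9 RPKM), Plk2 (23.2 RPKM) and Ccng1 (20.9 RPKM), and in shChi3l1 above them. Mdm2 (25.8 ± 8.42 RPKM), Gadd45g (25.02 ± 15.3 RPKM), Plk2 (21.6 ± 8.63 RPKM) and Ccng1 (20.6 ± 4.01 RPKM) lay within each other's spread. Gadd45a at 13.3 ± 5.52 RPKM and Trp53 at 9.92 ± 2.40 RPKM were the lowest.

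Plk3 encodes a polo-like kinase that is induced rapidly by mitogens and stress and that phosphorylates p53 and other stress-response proteins in human cells. Plk3 (ENSMUSG00000028680.14, mm10 chromosome 4, 117128655 to 117133963, minus strand) had 93.7, 163 and 74.9 CPM in shChi3l1 replicates 1, 2 and 3, against 50.8, 32.7, 37.4 and 34.1 CPM in shSC replicates 1 to 4. The lowest shChi3l1 library was 1.47-fold above the highest shSC library, and shChi3l1 2 stood above the other 2 libraries of its group.

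Mean Plk3 levels were 111 ± 46.6 CPM in shChi3l1 (SD, n = 3) and 38.7 ± 8.27 CPM in shSC libraries (SD, n = 4). The fitted log2 fold change was 1.51 (SE 0.36), a 2.86-fold difference. Between 1842 and 5496 reads stood behind each shChi3l1 value and between 793 and 1432 behind each shSC value. The 95% exact binomial interval of the lowest shChi3l1 value was 71.5 to 78.4 CPM and that of the highest shSC value 48.2 to 53.5 CPM, which covers counting error only. Another gene, Tctex1d4, overlaps 3.32% of the exon bases of Plk3.

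Within the same-numbered pairs 1, 2 and 3 the Plk3 differences were 0.88, 2.32 and 1.00 on the log2 scale. Their common direction follows from the way Plk3 was chosen. The largest of these rested on shChi3l1 2, the highest library, and shSC 2, the lowest. Leaving out 1 library at a time gave log2 fold changes from 1.11 (without shChi3l1 2) to 1.73 (without shChi3l1 3). With shChi3l1 3 and shSC 4 both left out the value was 1.67 (SE 0.46). Those were the libraries highest in microglia and in glioma and glia markers.

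Some measures moved with the Plk3 difference, and their part in it was not tested. Macrophage markers were one: all 10 had fold changes above 0, and their sums were highest in shChi3l1 1 and shChi3l1 2. In shChi3l1 1 the sum was mostly Lyz2, at 30414 of 47787 CPM. With each marker weighted alike, their mean log2 deviation from the gene means was -0.33 in shChi3l1 1, the lowest of all libraries. It was 0.58 and 0.43 in shChi3l1 2 and 3, against -0.32 to 0.14 in shSC libraries. Microglia markers were another: 8 of 8 had fold changes above 0, although their sums overlapped between the groups and were highest in shChi3l1 3. Immediate-early genes, which stimulation or dissociation can induce, were a further one: their sum was 12187, 11502 and 15043 CPM in shChi3l1 replicates 1 to 3, against 11832, 8225, 11665 and 9213 CPM in shSC replicates 1 to 4. Weighted alike, these genes had a mean log2 deviation of -0.12, 0.27 and 0.52 in shChi3l1 replicates 1 to 3. In shSC libraries it was -0.19 to -0.16, so by this measure the groups did not overlap. By both measures the highest library was shChi3l1 3, where Plk3 was the lowest of its group.

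**Figure D1:**
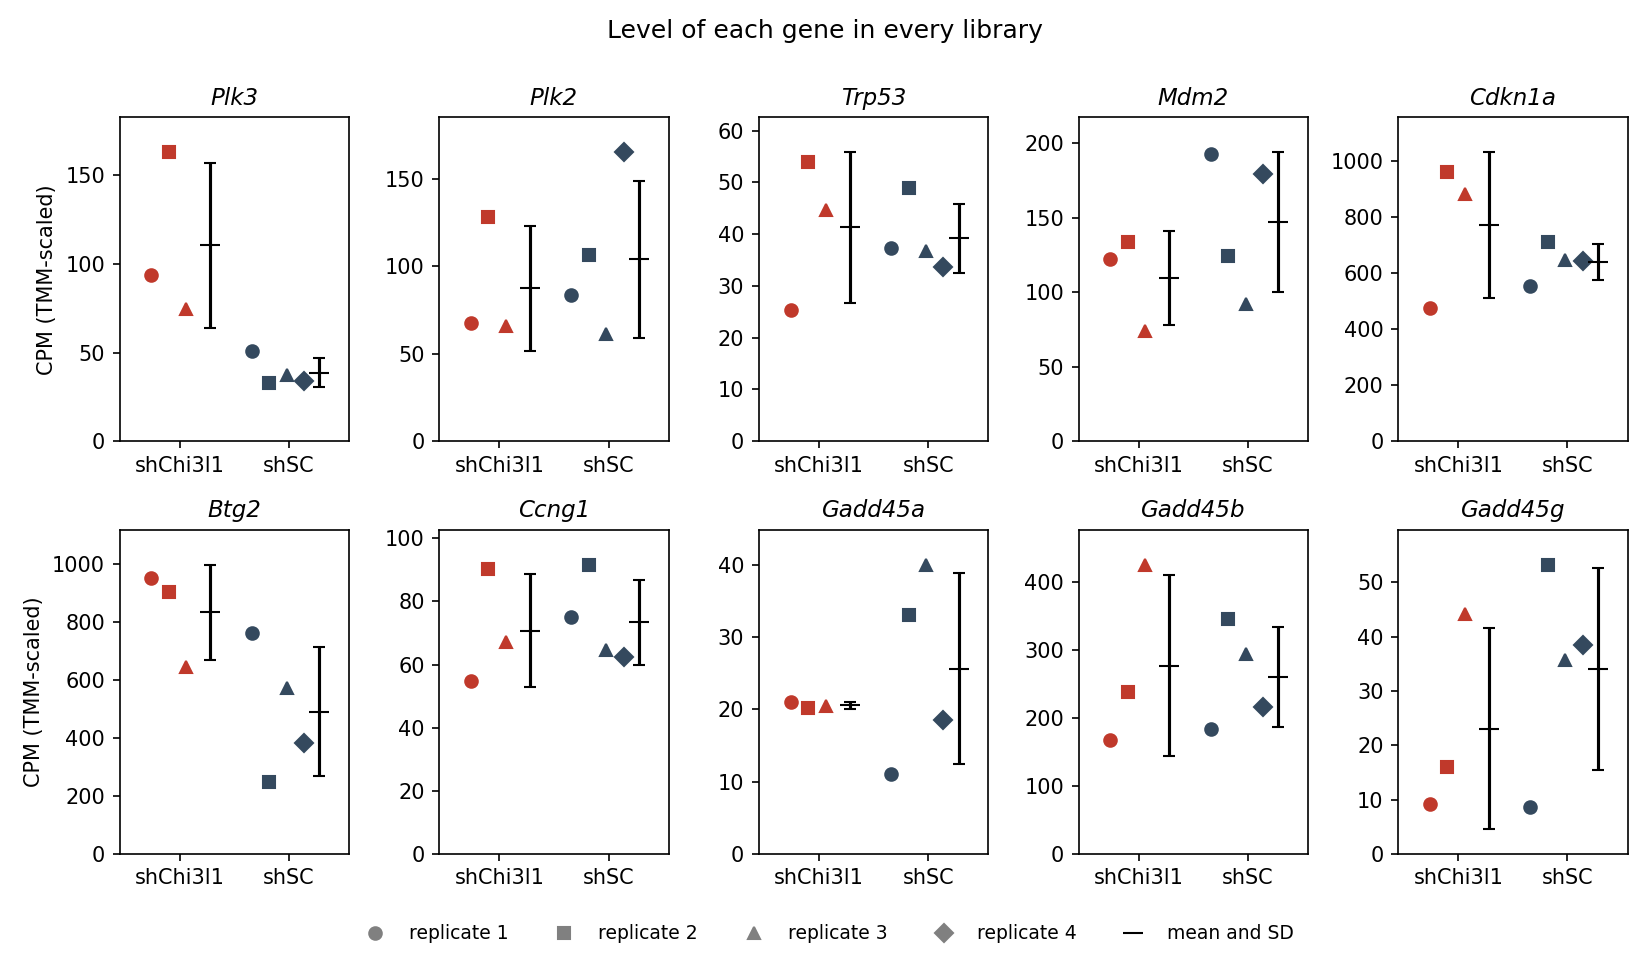
CPM of each gene (TMM-scaled, linear axes from 0) in the 3 shChi3l1 libraries (red) and 4 shSC libraries (dark), with the mean and SD of each group beside the points; marker shapes give the replicate number. For Plk3 the lowest shChi3l1 library, at 74.9 CPM, lies above the highest shSC library, at 50.8 CPM, and in the other 9 panels the groups overlap.

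Plk2 encodes the closest relative of PLK3 in the set, a kinase of centriole duplication and, in neurons, of synaptic scaling. Its levels were 67.7, 128 and 65.9 CPM in shChi3l1 and 83.6, 106, 61.0 and 165 CPM in shSC libraries, so the groups overlapped and the highest library was shSC 4. The log2 fold change was -0.25 (SE 0.43). Leaving out shSC 4 brought it to 0.06. Its log2 differences within the same-numbered pairs were -0.30, 0.27 and 0.11.

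Other members of the polo-like kinase family were scarce. Plk1, a mitotic kinase, had 7.19 ± 3.00 CPM in shChi3l1 and 10.0 ± 5.08 CPM in shSC libraries (SD, n = 3 and n = 4). Plk4, which starts centriole duplication, had 8.38 ± 2.28 CPM in shChi3l1 and 10.9 ± 1.68 CPM in shSC libraries, and Plk5 had no read in any library.

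Trp53 had 25.4, 54.0 and 44.6 CPM in shChi3l1 and 37.4, 49.0, 36.8 and 33.6 CPM in shSC libraries, with the lowest and the highest value both in shChi3l1. The log2 fold change was 0.08 (SE 0.34). p53 is controlled mainly through the stability of the protein, which was not measured.

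Mdm2, the gene of the ligase that degrades p53 and itself a p53 target, had 122, 133 and 73.9 CPM in shChi3l1 and 193, 124, 92.3 and 179 CPM in shSC libraries. ShSC 1 and shSC 4 were the high libraries, and the groups overlapped. The log2 fold change was -0.42 (SE 0.38), and it stayed below 0 under each of the 13 alternatives run, from -0.67 to -0.10.

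Cdkn1a encodes p21, the inhibitor of cyclin-dependent kinases through which p53 halts the cycle, and p21 is also made in maturing macrophages without p53. Its levels were 475, 958 and 881 CPM in shChi3l1 and 553, 712, 647 and 643 CPM in shSC libraries. The lowest of all libraries was shChi3l1 1 and the 2 highest were shChi3l1 2 and 3, so the shChi3l1 libraries lay on both sides of the shSC range. The log2 fold change was 0.27 (SE 0.36). Without shChi3l1 1 it was 0.49, and the remaining shChi3l1 libraries then lay above all 4 shSC libraries, as they did for 10.2% of all genes tested in that setting.

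Btg2 encodes an antiproliferative protein that recruits the CCR4-NOT deadenylase to mRNA. It came nearest to Plk3 in pattern, with 951, 906 and 646 CPM in shChi3l1 and 762, 249.7, 572 and 381 CPM in shSC libraries. Only shSC 1 overlapped with the other group, lying above shChi3l1 3, so that 11 of the 12 comparisons of a shChi3l1 with a shSC library were in 1 direction.

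Group means of Btg2 were 834 ± 164 CPM in shChi3l1 (SD, n = 3) and 491 ± 224 CPM in shSC libraries (SD, n = 4), and the log2 fold change was 0.76 (SE 0.43). It ranged from 0.55 without shSC 2, the lowest library, to 1.03 without shSC 1. Within pairs 1, 2 and 3 the log2 differences were 0.32, 1.86 and 0.18, all higher in shChi3l1. Pair 2 was thus the largest for both Btg2 and Plk3, and in both genes shSC 2 was the lowest of the 7 libraries.

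Ccng1 encodes cyclin G1, a p53 target that brings a phosphatase to MDM2. It had the smallest pooled within-group SD of log2 CPM in the set, 0.30, with levels of 54.8, 90.1 and 67.2 CPM in shChi3l1 and 74.9, 91.7, 64.5 and 62.3 CPM in shSC libraries. The groups overlapped throughout, and the log2 fold change was -0.05 (SE 0.31). Ccng1, Trp53 and Cdkn1a shared their lowest library, shChi3l1 1, and were each higher in replicate 2 than in replicate 1 in both groups.

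The GADD45 proteins are small stress sensors that bind the kinase MAP3K4, the clamp protein PCNA and the mitotic kinase CDK1. Gadd45a, the family's p53 target, had 21.1, 20.2 and 20.4 CPM in shChi3l1 and 11.1, 33.0, 40.0 and 18.5 CPM in shSC libraries. The shChi3l1 libraries thus lay within a 1.04-fold range and the shSC libraries within a 3.62-fold range that contained them. The log2 fold change was -0.32 (SE 0.45). Another gene, E230016M11Rik, overlaps 19.1% of its exon bases.

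Gadd45b, which NF-kB and TGF-beta signals induce, had 168, 238 and 426 CPM in shChi3l1 and 184, 346, 294 and 217 CPM in shSC libraries. Both the lowest and the highest library were in shChi3l1. Its log2 fold change was 0.09 (SE 0.41), and -0.36 without shChi3l1 3, the highest library.

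Gadd45g, which cytokines induce, had 9.11, 16.04 and 44.1 CPM in shChi3l1 and 8.62, 53.3, 35.8 and 38.4 CPM in shSC libraries. It had the widest range in the set, 6.19-fold among the shSC libraries alone, and its log2 fold change of -0.56 (SE 0.67) became -1.43 without shChi3l1 3. The fewest reads of any gene in the set were the 214 of Gadd45g in shChi3l1 1, with a 95% exact binomial interval of 7.93 to 10.4 CPM.

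Gadd45b and Gadd45g had a common pattern that did not follow the hairpin. Both were lowest in the replicates numbered 1 of both groups and high in shChi3l1 3 and shSC 2. Cdkn1a was also lowest in these libraries. In shChi3l1 1 and shSC 1 the smallest percentages of counts lay on genes longer than 5000 exon bases, 12.6% and 14.8%, against 16.8% to 20.7% in the other 5. Both had the largest percentages on ribosomal protein genes, 6.17% and 5.71%, against 1.97% to 4.56%. The part of these library measures in the pattern was not tested.

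**Figure D2:**
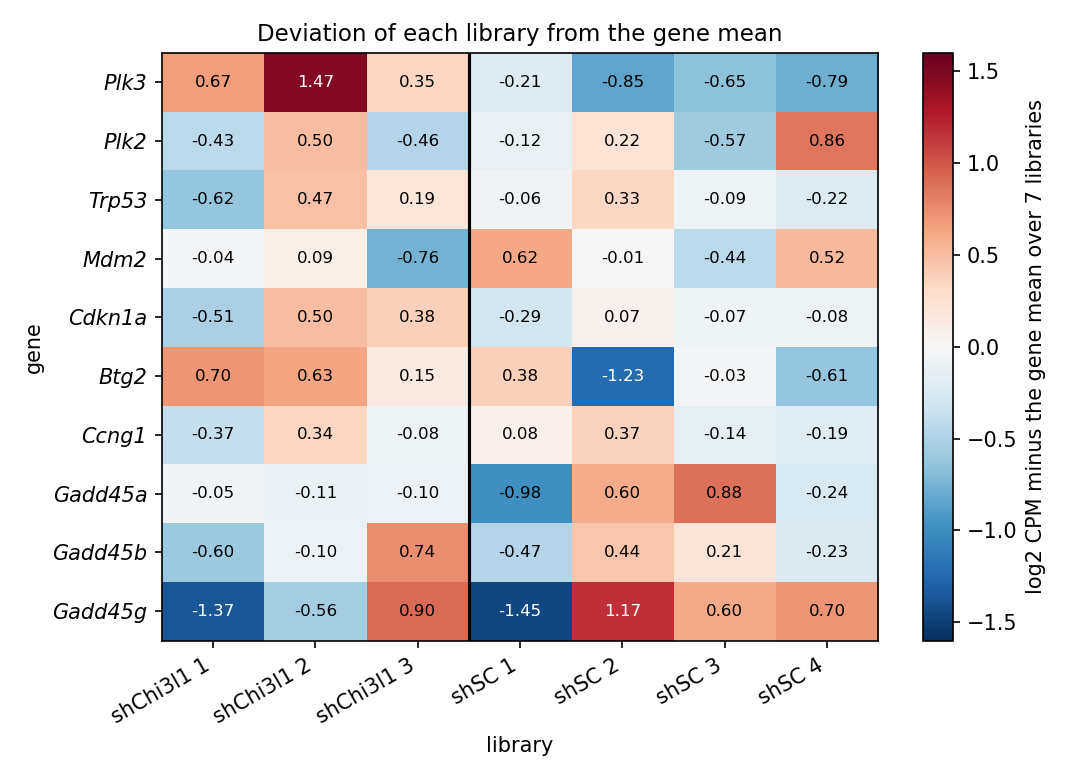
Log2 CPM of each gene (rows) in each library (columns) minus the gene's mean over the 7 libraries, with shChi3l1 libraries left of the black line and shSC libraries right of it. Plk3 is the row whose 3 shChi3l1 values (0.67, 1.47 and 0.35) are all above 0 and whose 4 shSC values (-0.21 to -0.85) are all below 0, and Gadd45g has its lowest values, -1.37 and -1.45, in the libraries numbered 1.

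The fold changes of the 10 genes lay on both sides of 0. Of the 10, 5 had a log2 fold change above 0 and 5 below, with a median of 0.01, against a median of 0.07 over all 15448 tested genes. In 1 of the 10, Plk3, the groups did not overlap. Every shChi3l1 library lay above every shSC library in 1.24% of tested genes and below in 1.25%. Since Plk3 was chosen for this, nothing is read from that count.

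The count was 2 in some settings with fewer libraries, where more genes separate. Btg2 joined Plk3 without shSC 1 and without shChi3l1 3, with log2 fold changes of 1.03 and 0.92, and the shares of all tested genes higher without overlap were then 2.56% and 2.85%. It did so too with shChi3l1 3 and shSC 4 both left out, where the share was 4.90%. Cdkn1a joined Plk3 without shChi3l1 1, where it was 10.2%. At an adjusted p of 0.05, edgeR's quasi-likelihood test called 0 of the 10 genes and 0% of all tested genes, while the unadjusted p was under 0.05 for 229 genes and, by DESeq2's Wald test, for 350. DESeq2 called 1 gene, the immunoglobulin segment Igkv4-58, which is outside the set and was noted after its values were seen. A lack of calls does not show that levels were equal. The pooled SD of log2 CPM within groups had a median of 0.51 over the 10 genes, beside 0.58 over the 8998 tested genes whose mean log2 CPM reached 2.

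**Figure D3:**
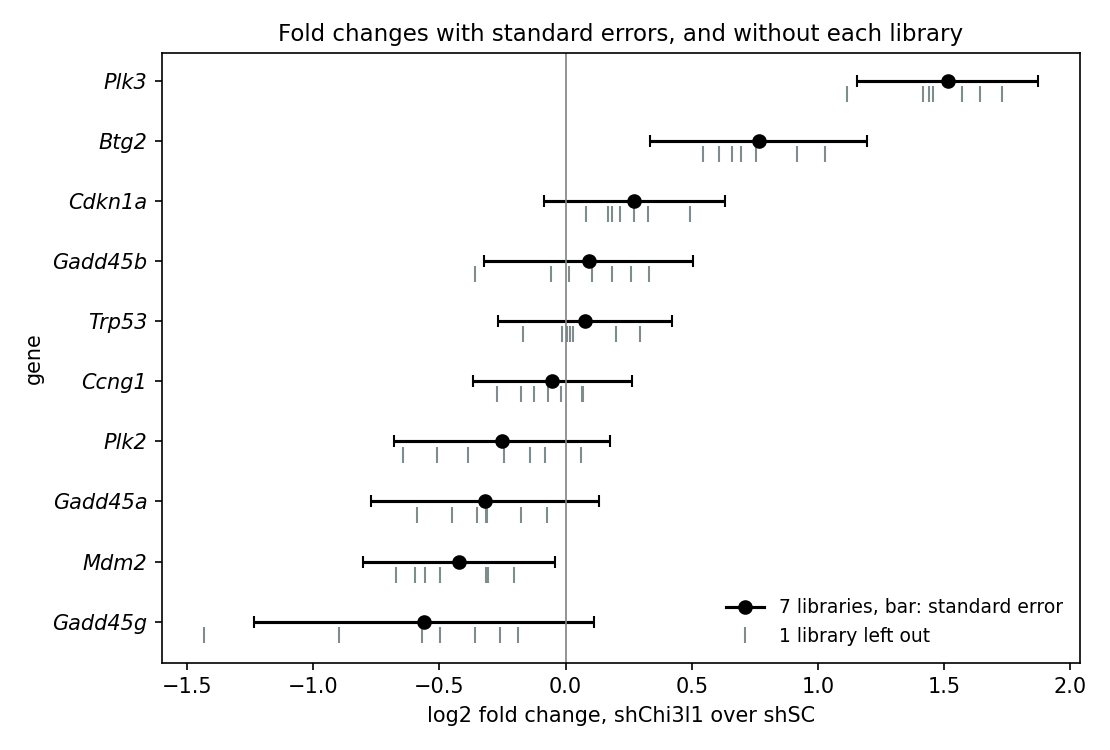
Log2 fold change of shChi3l1 over shSC for each gene from the fit of all 7 libraries (black points, bars are standard errors), with the values obtained when 1 library is left out (grey ticks). Plk3 lies at 1.51 with ticks from 1.11 to 1.73, Btg2 at 0.76 with ticks from 0.55 to 1.03, and Gadd45g shows the widest ticks, from -1.43 to -0.19.

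Other genes of the p53 pathway, from lists drawn up with earlier results of these data known, had mixed directions. None passed the adjusted threshold. Of 28 further p53 targets 27 were tested, 12 with fold changes above 0 and 15 below (median -0.05, log2), and the groups overlapped in each of the 27. Trp53inp1, which promotes p53-dependent death, had the smallest unadjusted p of them and was at 0.77 (SE 0.53). That value rested on shChi3l1 3, at 25.1 CPM, beside 5.28 to 9.96 CPM in the other 6 libraries. Phlda3, an inhibitor of AKT, and Zmat3, an RNA-binding protein gene, were at -0.70 (SE 0.50) and -0.69 (SE 0.53).

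Regulators of p53 were divided as evenly, with 11 of 22 above 0 and a median of 0.04. Atr, the kinase that senses stalled replication forks, was higher in every shChi3l1 library, at 7.95 ± 0.83 CPM against 5.24 ± 1.36 CPM in shSC libraries (SD, n = 3 and n = 4), and had a log2 fold change of 0.60 (SE 0.37). Aurka, a mitotic kinase that phosphorylates p53, was lower in every shChi3l1 library, at 17.9 ± 1.52 CPM against 31.3 ± 8.93 CPM in shSC libraries (SD, n = 3 and n = 4), and its log2 fold change was -0.80 (SE 0.33). Over all tested genes, 1.24% were higher and 1.25% lower without overlap. Ppp1r13b, which encodes the p53 cofactor ASPP1, was at 0.96 (SE 0.53). GADD45 partners and stress kinases, taken as 1 list, had 7 of 14 above 0 and a median of 0.02. Ccnb1, Map2k6 and Mapk14 of that list were at -0.81 (SE 0.51), -0.53 (SE 0.49) and 0.35 (SE 0.38). Paralogs of the 10 genes had 6 of 10 tested above 0 and a median of 0.25, led in p by Ccng2, a cyclin G relative, at 0.40 (SE 0.35), with Plk4 at -0.38 (SE 0.36) and Plk1 at -0.48 (SE 0.49).

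Cell-cycle genes that p53 represses through p21 and the DREAM complex all had fold changes below 0 (20 of 20, median -0.66). In 4 of them, among which were Aurkb (-1.06, SE 0.40), Aurka (named above) and Mcm5 (-0.74, SE 0.31), every shChi3l1 library was lower than every shSC library. The same held for 1.25% of all tested genes. Cdkn1a mRNA did not separate the groups in this way, and the part of p21 in these lower levels was not tested. The list's sum ran from 387 to 422 CPM in shChi3l1 and from 456 to 728 CPM in shSC libraries, and it was highest in shSC 4, at 728 CPM, and shSC 1, at 702 CPM. With each gene weighted alike, the list's mean log2 deviation from the gene means was -0.24 in both shChi3l1 2 and shSC 3. It was highest in shSC 4, at 0.79, followed by shSC 1, at 0.26. Glioma and glia markers summed to 265 CPM in shSC 4, the highest of all libraries, and to 41.0 CPM in shSC 1, the lowest of its group, and their part in the difference was not tested. Immediate-early genes had 21 of 24 above 0 with a median of 0.45. Jund, an AP-1 subunit gene, was at 1.21 (SE 0.41), although another gene, Gm11175, overlaps 52.6% of its exon bases, and Egr3, a zinc finger factor, at 1.43 (SE 0.55). Fosl2, another AP-1 gene, was the member of that list with no overlap between groups, at 0.52 (SE 0.28). Of all tested genes, 1.24% were likewise higher without overlap.

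**Figure D4:**
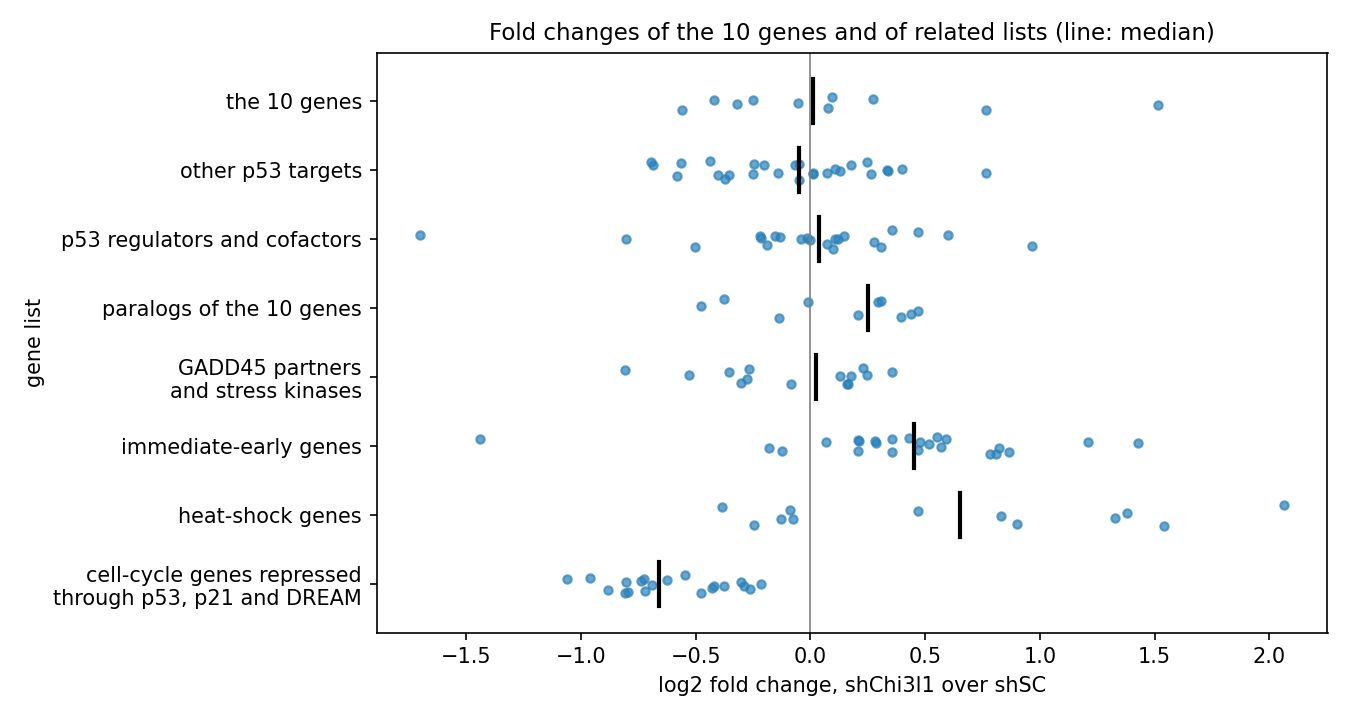
Log2 fold changes of shChi3l1 over shSC for the 10 genes (top row) and for the tested genes of 7 related lists, 1 point per gene, with the median of each list as a black line. The 10 genes centre on 0.01 and the other p53 targets on -0.05, while all 20 cell-cycle genes lie below 0.

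Genes with the pattern most like Plk3 were found by Pearson correlation of log2 CPM over the 7 libraries, among 8499 genes with an established symbol and the same minimum level. The libraries share their scaling, and genes that separate the hairpins rank high by construction, so the values describe likeness only. The 5 nearest were Fbxo31 (r = 0.98), Dusp5 (r = 0.98), Zfx (r = 0.94), Tapt1 (r = 0.93) and Wls (r = 0.93). Fbxo31, an F-box subunit of a ubiquitin ligase, had 10.4, 13.8 and 9.63 CPM in shChi3l1 and 7.87, 5.39, 6.79 and 6.49 CPM in shSC libraries. Dusp5, an early-response phosphatase of ERK, had 243, 317 and 178 CPM in shChi3l1 and 171, 129, 122.9 and 115 CPM in shSC libraries. As with Plk3, shChi3l1 2 was the highest and shSC 1 the highest of its group in both.

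Among the set, Btg2 ranked 66 of these 8499 genes in likeness to Plk3 (r = 0.80), followed by Cdkn1a at rank 1589 (r = 0.34). Plk2 was at rank 5911 (r = -0.06), and Gadd45g was the least like Plk3 (r = -0.53). The order was another for deviations from group means, which leave out the hairpin difference. There r with Plk3 was 0.61 for Btg2, 0.60 for Mdm2, 0.47 for Ccng1, 0.31 for Plk2, 0.12 for Cdkn1a and -0.63 for Gadd45g.

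The 10 mRNAs also differed in their 3′ untranslated regions. The pentamer ATTTA is a building block of AU-rich elements, which mark mRNAs for rapid decay. It was counted in the transcript with the longest coding sequence of each gene in GENCODE mouse release M21. Plk3 had 4 in 332 bases, or 12.05 per 1000 bases, a rate above that of 99.5% of 11908 tested genes with such a region of at least 100 bases. Mdm2 followed with 8 in 1335 bases, or 5.99 per 1000. Rates in Gadd45a, Ccng1, Plk2, Cdkn1a, Btg2 and Trp53 ran from 2.27 to 3.55 per 1000, above the median of 1.33, and Gadd45b and Gadd45g had none. The longer motif TTATTTATT was present in Plk3, Plk2 and Mdm2 and in 7.43% of the 11908 genes. These counts describe sequence, and no decay was measured.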

How the data were processed

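RNA was measured in 7 libraries of sorted macrophages, made per the labels' protocols with a SMART-Seq low-input kit and Nextera XT, which does not mark strand. Each library has 1 deposited file of raw counts, whole numbers with the exon coordinates and length of every gene. The submitters' processing notes list Trim Galore, HISAT2, featureCounts and mm10. Their versions and settings were not given in the sources used. Gene IDs were matched to symbols in a reference table with the version ignored, which named 55144 of 55385.

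The filter was filterByExpr with a minimum count of 10 and the scaling TMM. Hairpin was the only term of a robust quasi-likelihood F test in edgeR 4.0.16 (R 4.3.3), with Benjamini-Hochberg adjustment over 15448 genes. Logarithms were taken after adding 0.5 to counts, and standard errors come from the F statistic. The script was tested on simulated data. Motifs were counted on both strands of RefSeq promoter windows.

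Members and lists were chosen with earlier results of these data known. Named genes are all members, the 5 genes most like Plk3, and the 3 of smallest unadjusted p in each pathway list, and genes whose groups do not overlap are named beside their count, except 1 that is not reported here. Outside this rule, Chil1 is given as the hairpin's target, Plk5 as a listed paralog without reads and Igkv4-58 as the DESeq2 call. Fabp7 and Lyz2 are given as markers, and some genes for their overlap with a named gene. Reads of overlapping genes cannot be separated by strand. Over 21 pairs of libraries, chi-square per gene was at least 139, so no library was a copy of another.

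The labels pair replicates 1 to 3 in a figure without naming a shared day or animal. Deviations from group means correlated at 0.31, 0.26 and 0.19 between libraries of the same number, so each passed the limit of 0.1, although shChi3l1 3 with shSC 2 had 0.32. The replicate number entered only as an alternative. Others were 2 further scalings, no filter, DESeq2 1.42.0's Wald test, leaving out each library, and leaving out shChi3l1 3 and shSC 4 together.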

Additional observations from a re-analysis of the deposited data

How the results depend on the processing

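The log2 fold change of Plk3 lay between 1.11 and 1.73 over the 13 alternatives. That its groups stayed apart follows from its choice wherever libraries were only left out. With the replicate block, which leaves out shSC 4, its value was 1.39, Btg2 was at 0.77, and no gene was called. DESeq2's Wald test called 1 gene in place of 0, and the cause was not tested. The count of members whose groups do not overlap was 1 to 2 when 1 library was left out and 2 without both shChi3l1 3 and shSC 4, where 770 genes of all tested were higher and 703 lower without overlap. Fewer libraries make such separation easier. Of 169 values recomputed, 164 moved by less than the spread between libraries, or for counts by less than 1.5 times. The 5 that moved further were counts. That spread is wide, and a change of sign within it was not counted as a move.

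The log2 fold changes of Cdkn1a, Btg2, Mdm2, Gadd45a and Gadd45g kept their sign in 13 of 13 alternatives, that of Ccng1 in 11, Plk2 in 10 and Gadd45b and Trp53 in 9 each. The 229 genes with an unadjusted p under 0.05 became 143 without shSC 4, 908 without shChi3l1 1, 435 with the block and 927 without a filter, and every edgeR fit run called 0. Over all genes, 191 higher and 193 lower without overlap became 253 to 1647 higher and 274 to 1375 lower when 1 library was left out, with the most on each side without shChi3l1 1. Each member's value rests on at least 214 reads, so counting error is mostly small beside the spread between libraries. Gadd45a among the shChi3l1 libraries is an exception, since its values differ by less than their counting error.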

Other observations

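Heat-shock genes, another arm of the stress response, were highest in summed CPM in shChi3l1 3. Of 12 tested, 7 had a log2 fold change above 0 and the median was 0.65. Weighted alike, their mean log2 deviation from the gene means was -0.62, -0.16 and 1.35 in shChi3l1 replicates 1 to 3. In shSC replicates 1 to 4 it was -0.93, 0.23, -0.20 and 0.33, so only shChi3l1 3 stood outside the shSC range. Hspa1b, an inducible HSP70 gene, had 74.7, 106 and 855 CPM in shChi3l1 and 20.99, 77.4, 73.0 and 158 CPM in shSC libraries. Dnajb1, its co-chaperone gene, had 459, 203 and 921 CPM in shChi3l1 and 212, 164, 295 and 170.4 CPM in shSC libraries. ShChi3l1 3 was the highest library for both, whereas Plk3 was lowest there within its group. Their log2 fold changes were 2.07 (SE 0.90) and 1.33 (SE 0.50). Hspa1a, at 1.54 (SE 0.81), had 38.3, 89.3 and 493 CPM in shChi3l1 and 27.9, 58.9, 68.8 and 129 CPM in shSC libraries. Its fold change thus rested on shChi3l1 3. Hspa1a and Hspa1b are near-identical copies between which reads can be misassigned.

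Myc, which drives cell growth, went against most immediate-early genes, with 9.83, 31.7 and 28.6 CPM in shChi3l1 and 22.3, 49.6, 33.1 and 149 CPM in shSC libraries. Its log2 fold change was -1.44 (SE 0.70). The highest value was in shSC 4, the library also highest in Fabp7, a glial marker, at 141 CPM.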
